A study of Mus musculus with 28 samples.

Results

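The muscle miRNAs miR-1a-3p and miR-133a-3p and the endothelial miRNA miR-126a-3p (mmu-mir-1a-3p, mmu-mir-133a-3p and mmu-mir-126a-3p in the tables) were followed across small RNA libraries of mouse alveolar macrophages (AM). They are 3 of the 607 miRNAs listed over the 4 tables of the series, which hold 28 libraries, and all 3 were listed in every table. They were selected on their levels per library, since single libraries held far more of them than the rest, so these levels are given as a description, with no test. The co-ex mice express human SP-A1 together with SP-A2 (6A2/1A0) on a C57BL/6J background that lacks mouse SP-A, and the SP-A knockout (KO) mice lack SP-A altogether, so no group had mouse SP-A. Males and females were 12 weeks old, the females were synchronized for the estrous cycle, and each mouse breathed filtered air (FA) or ozone (O3) for 3 h. AM were taken by bronchoalveolar lavage after 4 h of recovery. There were 4 libraries in each of the 4 co-ex groups and 3 in each of the 4 KO groups, per the labels from groups of 4 animals, and a library is named here by its genotype, sex, exposure and replicate number. Small RNA does not measure the SP-A gene, so the knockout itself could not be checked.

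miR-1 and miR-133 are cut from shared primary transcripts in heart and skeletal muscle, where they act in muscle differentiation and contraction, and neither is a marker of macrophages. miR-126 is cut from an intron of Egfl7, which encodes a protein secreted by endothelium, and it acts in vascular integrity and angiogenic signaling. miR-206 belongs to the miR-1 family and is made in skeletal muscle.

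The mature miR-126a-3p is shown because its level differed most between libraries of KO males, together with its hairpin, in which the capitals mark the mature strand. miR-206-3p is shown for the seed that marks the miR-1 family, and miR-30a-3p as the miRNA whose levels followed miR-126a-3p most closely. In the mature sequences the capitals mark the seed, bases 2 to 8. The sequences are those of RefSeq (GRCm38.p6), in which 1 of the 3 miRNAs was matched, while miR-1a-3p and miR-133a-3p are given by name.
miR-126a-3p: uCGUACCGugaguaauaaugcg
Mir126a hairpin: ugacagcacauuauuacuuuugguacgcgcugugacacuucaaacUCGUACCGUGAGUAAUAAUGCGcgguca
miR-206-3p: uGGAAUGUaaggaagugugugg
miR-30a-3p: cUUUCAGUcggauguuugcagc

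Mir126a lies on the plus strand at chr2:26591357-26591429 (GRCm38), within Egfl7, and it was intronic in all 7 of the protein-coding Egfl7 transcripts that span it, while 1 non-coding transcript has an exon there. Mir126b is annotated on the opposite strand at chr2:26591363-26591420, so it overlaps Mir126a. Mir1a-1 lies at chr2:180389048-180389124 and Mir133a-2 at chr2:180398379-180398482, both on the plus strand and 9254 bp apart, outside any annotated GENCODE host gene. Mir206 lies at chr1:20679010-20679082, in an exon of the long non-coding RNA gene Gm28653. miR-1a-3p and miR-133a-3p are each also made from a second gene copy, and reads of the copies cannot be told apart.

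Libraries held 41542 to 2082034 miRNA reads (median 490152), recovered from the deposited values, and levels are given as RPM, the read count divided by the total miRNA reads of the library and multiplied by 1e+06. Exact Clopper-Pearson 95% intervals and the limit that 0 reads allows, taken as 3 reads, cover counting error only. The labels do not say that each library is a separate animal, so p-values measure the spread between these libraries. KO male FA replicate 3 stood apart from its group. Its median rank correlation with the other libraries of its group was 0.715, the lowest of the 28 libraries, and its 9 myeloid miRNAs summed to 51069 RPM, against 313897 and 247066 RPM in the other KO male FA libraries. Over all libraries the myeloid sum, which includes miR-21a-5p, miR-223-3p, miR-142a and miR-146b-5p, ranged from 51069 to 313897 RPM. In KO male FA replicates 1 and 2, miR-21a-5p alone made up 21.2% and 15.7% of all reads, so their sums rested largely on it. Not every myeloid miRNA was lower in FA replicate 3, where miR-142a-5p held 4458 RPM against 4431 and 3478 RPM. In bulk samples, a change in the number of cells of a type and a change in RNA per cell cannot be told apart.

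miR-1a-3p was detected in 28 of 28 libraries, and in most of them it was a minor miRNA. In KO females after O3, replicates 1, 2 and 3 held 11.8, 576 and 77421 RPM. Replicate 3 thus had 49145 reads of miR-1a-3p, 7.74% of its reads, and the miRNA ranked 3 in that library, behind miR-21a-5p with 10.1% and miR-30d-5p with 8.99%. In KO females breathing FA the levels were 27.9, 60.3 and 124 RPM. The O3 and FA ranges overlapped, since replicate 1 after O3 lay below each FA library and replicates 2 and 3 lay above them.

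In KO males the highest library was in the other exposure. The FA libraries held 15.0, 17.9 and 3614 RPM of miR-1a-3p, the last with 3547 reads and rank 43, and the O3 libraries held 41.8, 279 and 33.6 RPM. The first 2 FA libraries lay below each O3 library and the third above them. In co-ex females the FA libraries held 5210.0, 83.8, 492 and 318 RPM and the O3 libraries 265, 555, 306 and 538 RPM. FA replicate 1 was the one high library, and the others of both exposures overlapped. In co-ex males the FA libraries held 42.7, 236, 103 and 660.0 RPM and the O3 libraries 54.3, 58.1, 54.1 and 42.9 RPM. The O3 libraries lay close together, and the FA libraries ranged on both sides of them.

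**Figure D1:**
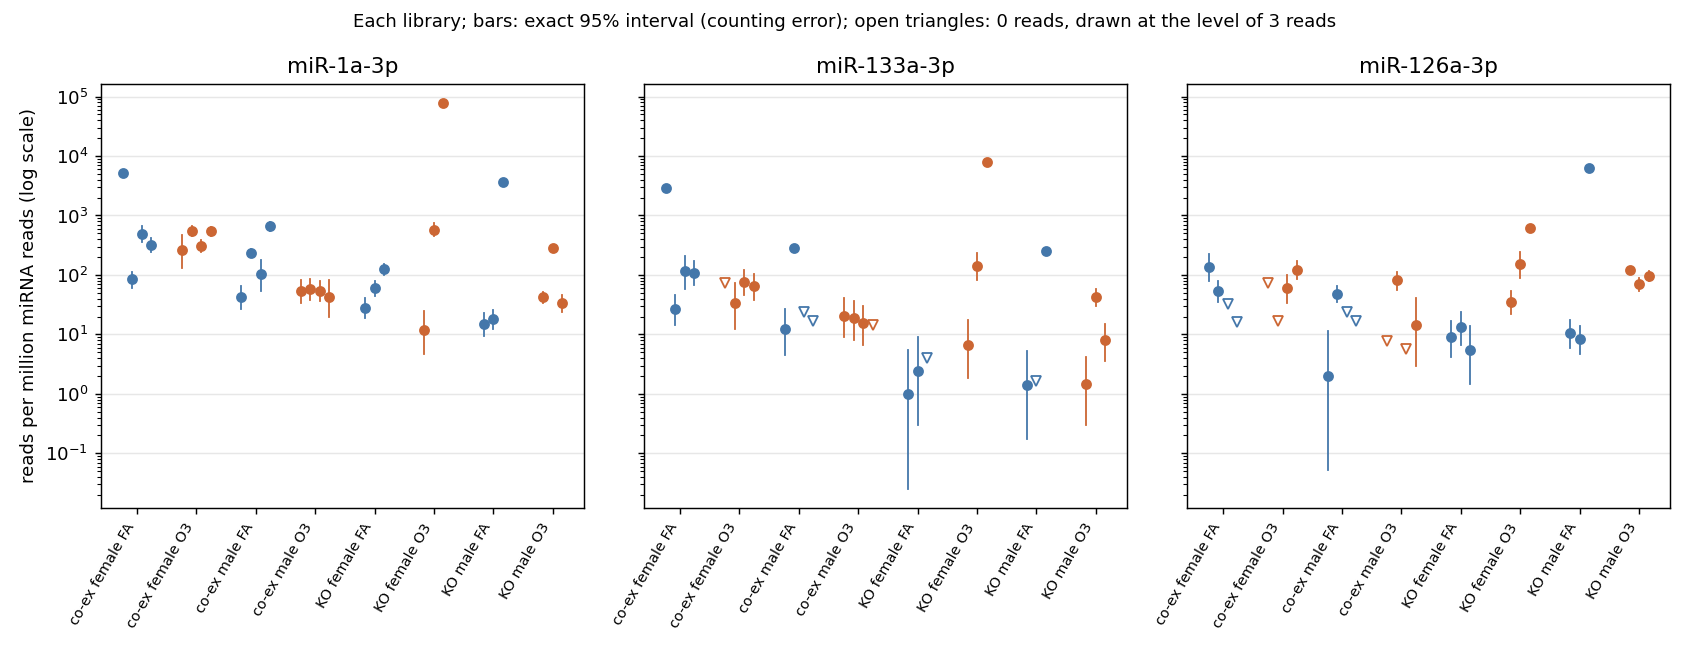
RPM (log axis) of miR-1a-3p, miR-133a-3p and miR-126a-3p in each of the 28 libraries by group, FA in blue and O3 in orange, with exact 95% intervals for counting error as vertical bars and libraries at 0 reads as open triangles at the level of 3 reads. KO female O3 replicate 3 stands at 77421 RPM of miR-1a-3p and KO male FA replicate 3 at 6400.1 RPM of miR-126a-3p, each far above the other libraries of its group.

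miR-133a-3p was detected in 22 of 28 libraries and had fewer than 3 reads in 9. In KO females after O3 its levels were 6.74, 144 and 7891 RPM, the last from 5009 reads, 0.789% of the library and rank 26. The KO female FA libraries held 1, 2 and 0 reads, or 0.997 and 2.46 RPM and a level of up to 4.03 RPM. Each O3 library lay above them, as was the case for 19.1% of all miRNAs tested in KO females. In KO males the FA libraries held 1.43, 0 and 252 RPM and the O3 libraries 1.44, 42.4 and 7.95 RPM. FA replicate 3, with 247 reads, was again the high one, and FA replicate 2 had 0 reads, which allows up to 1.68 RPM.

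In co-ex females the FA libraries held 2874.5, 26.6, 118 and 110 RPM of miR-133a-3p, and FA replicate 1, which was also the library with most miR-1a-3p, had 336 reads. The O3 libraries held 0, 33.3, 76.5 and 65.4 RPM, and the shallow O3 replicate 1 with 41542 reads allows up to 72.2 RPM. The exposures overlapped apart from FA replicate 1. In co-ex males the FA libraries held 12.2, 283, 0 and 0 RPM and the O3 libraries 20.7, 18.6, 15.5 and 0 RPM. Here the high library was FA replicate 2, with 252 reads, while FA replicate 4, which had most miR-1a-3p, had 0 reads of miR-133a-3p, which allows up to 16.5 RPM.

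miR-126a-3p was detected in 12 of 12 KO libraries and in 8 of 16 co-ex libraries, and the co-ex libraries held 41542 to 891030 reads against 111080 to 2082034 in KO. In KO males the FA libraries held 10.7, 8.39 and 6400.1 RPM, the last from 6282 reads and rank 31, and the O3 libraries held 121, 70.7 and 96.3 RPM. FA replicates 1 and 2 lay below each O3 library and FA replicate 3 far above. In KO females the FA libraries held 8.97, 13.5 and 5.37 RPM and the O3 libraries 35.4, 153 and 625 RPM. The exposures did not overlap, with the lowest O3 library above the highest FA library, as was the case for 19.1% of all miRNAs tested in KO females. Replicate 3 was the highest here too.

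In co-ex females miR-126a-3p stood at 137, 53.2, 0 and 0 RPM after FA and at 0, 0, 60.4 and 123 RPM after O3. In co-ex males it stood at 2.04, 48.3, 0 and 0 RPM after FA and at 0, 81.4, 0 and 14.3 RPM after O3. Both exposures had libraries at 0 reads and libraries with reads, and at 0 reads the limits ran from 5.79 RPM in co-ex male O3 replicate 3 to 72.2 RPM in co-ex female O3 replicate 1.

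The group medians put KO females after O3 first for each of the 3 miRNAs. For miR-1a-3p the order of the medians was KO female O3 (576 RPM), co-ex female O3 (422), co-ex female FA (405), co-ex male FA (169), KO female FA (60.3), co-ex male O3 (54.2), KO male O3 (41.8) and KO male FA (17.9). For miR-133a-3p it was KO female O3 (144 RPM), co-ex female FA (114), co-ex female O3 (49.3), co-ex male O3 (17.0) and KO male O3 (7.95). The KO male FA and KO female FA medians rested on 2 reads and 1 read and the co-ex male FA median in part on a library at 0 reads, so they were given no order. For miR-126a-3p it was KO female O3 (153 RPM), KO male O3 (96.3), KO male FA (10.7) and KO female FA (8.97), and the co-ex groups, each with 2 of 4 libraries at 0 reads, were given no order. In each order, the ranges of every pair of neighbours overlapped, so no neighbour was apart beyond the spread of its libraries.

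In the groups with 1 high library, most of the sum of the deposited normalized values came from it. KO female O3 replicate 3 held 99.3% of its group's summed normalized values of miR-1a-3p, 98.2% of that sum for miR-133a-3p and 77.1% for miR-126a-3p. KO male FA replicate 3 held 99.2%, 99.5% and 99.7%, respectively. In the co-ex mice the shares of miR-1a-3p were 85.2% for FA replicate 1 of females and 57.4% for FA replicate 4 of males, and those of miR-133a-3p were 91.8% for FA replicate 1 of females and 95.2% for FA replicate 2 of males. Not every group had such a library, and the highest share was 33.1% in co-ex female O3 and 28.7% in co-ex male O3 for miR-1a-3p, and 41.7% in KO male O3 for miR-126a-3p.

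Set against the median of the other libraries of its group, KO female O3 replicate 3 was 263-fold higher for miR-1a-3p, 105-fold for miR-133a-3p and 6.64-fold for miR-126a-3p. KO male FA replicate 3 was 219-fold higher for miR-1a-3p, at least 132-fold for miR-133a-3p and 669-fold for miR-126a-3p. The order of the 3 miRNAs thus differed between these libraries, with the muscle miRNAs leading in the first and miR-126a-3p in the second. In the co-ex mice FA replicate 1 of females was 16.4-fold higher for miR-1a-3p and 26.2-fold for miR-133a-3p, and at least 4.27-fold for miR-126a-3p. In co-ex males a different library was highest for each miRNA, FA replicate 4 for miR-1a-3p (6.42-fold), FA replicate 2 for miR-133a-3p (at least 17.1-fold) and O3 replicate 2 for miR-126a-3p (at least 10.5-fold). A bound of this kind sets the median of the others at 3 reads where it was under 3 reads. Among all miRNAs that passed the filter on low values, 1 library stood at least 10 times above the median of the others of its group for 3.69% of them in co-ex females, 11.9% in co-ex males, 6.9% in KO females and 12% in KO males. Since the miRNAs were chosen for this pattern, nothing is read from setting them against these shares.

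The proportions of the 3 miRNAs within a library are free of its depth. miR-133a-3p made up 9.25% (95% interval 9.01 to 9.497%) of the summed reads of miR-133a-3p and miR-1a-3p in KO female O3 replicate 3 and 6.51% (5.75 to 7.34%) in KO male FA replicate 3. In the co-ex libraries highest for miR-133a-3p, which were picked for that level, it was 35.6% (32.5 to 38.7%) in female FA replicate 1 and 54.5% (49.9 to 59.2%) in male FA replicate 2. In co-ex male FA replicate 4, the highest of its group for miR-1a-3p, it was 0 of 120 reads, which allows up to 3.03%.

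The share of miR-126a-3p in the summed reads of miR-126a-3p and miR-1a-3p was 0.801% (0.725 to 0.884%) in KO female O3 replicate 3 and 63.9% (63.0 to 64.9%) in KO male FA replicate 3. In co-ex female FA replicate 1 it was 2.56% (1.47 to 4.12%). In KO males after O3 it was 74.3%, 20.2% and 74.1% in replicates 1, 2 and 3, and replicate 2 was the one with most miR-1a-3p.

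**Figure D2:**
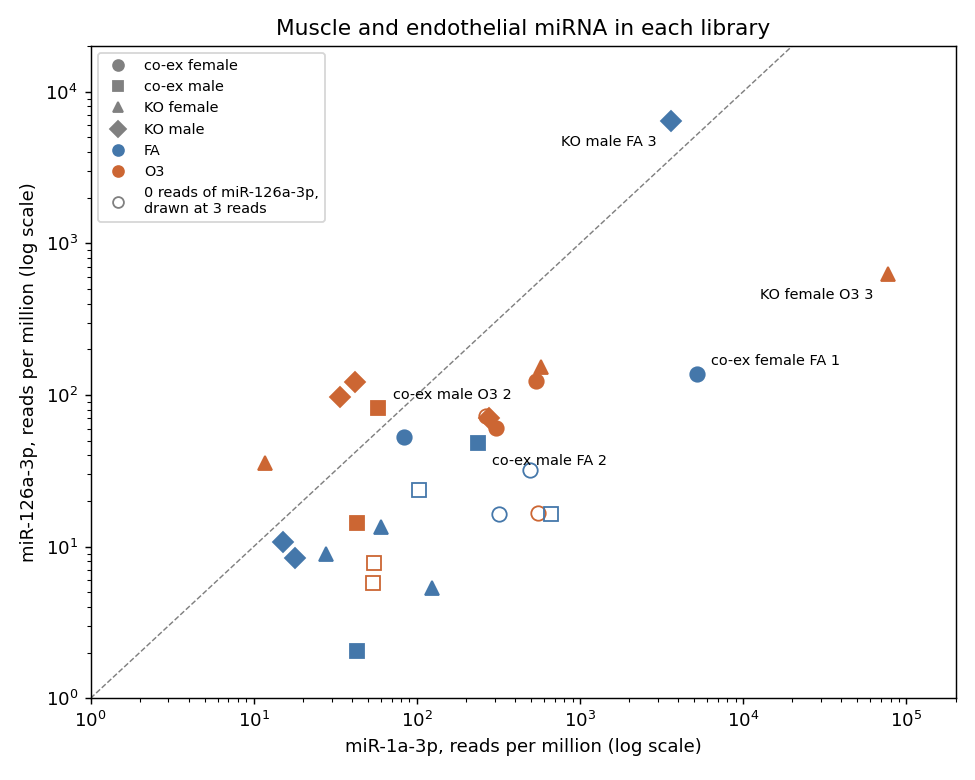
miR-126a-3p against miR-1a-3p in RPM, both on log axes, for each of the 28 libraries (shape, genotype and sex; color, exposure; open symbols, 0 reads of miR-126a-3p drawn at 3 reads; dashed line, equal levels). KO male FA replicate 3 lies above the line of equal levels with 6400.1 and 3614 RPM, and KO female O3 replicate 3 lies far below it with 625 and 77421 RPM.

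The other arm of the miR-126a hairpin was listed in KO mice and comes from the same transcript as miR-126a-3p. In KO males, miR-126a-5p had 0, 5 and 763 reads after FA and 7, 3 and 17 reads after O3, and FA replicate 3 stood at 777 RPM. It made up 10.8% (10.1 to 11.6%) of the reads of both arms in that library, 7.24% (4.97 to 10.1%) in KO female O3 replicate 3 and 13.5% (8.06 to 20.7%) in KO male O3 replicate 3. In the other libraries with at least 20 reads over both arms, the share ran from 2.70% (1.09 to 5.49%) in KO male O3 replicate 1 and 4.41% (0.919 to 12.4%) in KO male O3 replicate 2 to 27.6% (12.7 to 47.2%) in KO female O3 replicate 1. It was not computed for libraries with fewer reads. In KO females it had 0, 2 and 3 reads after FA and 8, 3 and 31 after O3. In RPM the KO female O3 libraries, at 13.5, 27.0 and 48.8, lay above the FA libraries, of which the highest had 4.03. This was the case for 19.1% of all miRNAs tested in KO females. miR-126a-5p reached the filter on low values in KO females through the O3 libraries alone, so its own test values are not given. It remains among the 7 vessel miRNAs tested there as a list. In KO males miR-126a-5p did not reach that filter.

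Other muscle miRNAs were scarce. Of the 17 miRNAs of the muscle list other than miR-1a-3p, miR-133a-3p and miR-486, which is counted with the red cell list, 3 were listed in any table. miR-206-3p, of the miR-1 family, was listed in co-ex females alone and had 26, 0, 0 and 0 reads after FA and 2, 0, 1 and 15 reads after O3. FA replicate 1, the library with most miR-1a-3p and miR-133a-3p of its table, was also the one with most miR-206-3p. miR-499-5p, which is made from an intron of the myosin gene Myh7b, was listed in KO males alone, with 0, 0 and 2 reads after FA and 0, 1 and 9 reads after O3. miR-378a-3p, which is also made in other metabolically active cells, was the only one listed in each table. It held 2562, 2611 and 1083 RPM in KO male FA libraries, so it was lowest in the library that was high for miR-1a-3p, and 2069, 2017 and 2943 RPM in KO female O3 libraries.

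Against the other FA libraries of its group, KO male FA replicate 3 was high for miRNAs of several other cell types at once. All 8 listed vessel miRNAs other than miR-126a-3p were above both other FA libraries in it, and their sum was 12743 RPM against 1207 and 1217 RPM. All 8 listed mesenchymal miRNAs, from fibroblasts and smooth muscle, did the same, with 26395 RPM against 862 and 839.9 RPM. miR-143-3p of smooth muscle alone held 23793 RPM against 625 and 585 RPM. All 13 epithelial miRNAs were also above, at 29556 against 2436 and 3101 RPM, and all 4 listed red cell miRNAs, at 69319.8 against 16547 and 29187 RPM. These 2 lists were not particular to it, since the KO male O3 libraries held 27597, 35870 and 26638 RPM of the epithelial list. Their red cell lists summed to 35045.5, 5414 and 112488 RPM. Their vessel and mesenchymal lists were lower than in FA replicate 3, at up to 2856 and 4897 RPM. Of the 9 myeloid miRNAs 5 were below both other FA libraries and 4 above. Among those below, miR-146b-5p held 2739.5 RPM against 90506 and 80307 RPM. Among those above, miR-150-5p, which is abundant in lymphocytes, held 5752 RPM against 115 and 103 RPM. miR-146a-5p, also above, held 3588 RPM against 341 and 373 RPM, and miR-142a-5p 4458 RPM against 4431 and 3478 RPM. The part of these other cell types in the levels of the muscle and vessel miRNAs was not tested.

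KO female O3 replicate 3 showed a narrower pattern. Its vessel list summed to 2773 RPM against 1981 and 4654 RPM in O3 replicates 1 and 2, its epithelial list to 39809 against 28995 and 53043 RPM, and its myeloid list to 157238 against 177651 and 139494 RPM, each between the other 2. Its mesenchymal list was higher, at 5070 RPM against 1013 and 2269 RPM, with 5 of 6 listed miRNAs above both other libraries and miR-143-3p at 4271 RPM against 811 and 1873 RPM. Its red cell list was lower, at 4362 RPM against 5161 and 24055 RPM. Its median rank correlation with the other libraries of its group was 0.878. The part of mesenchymal cells in its muscle miRNAs was not tested.

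Among the co-ex libraries, female FA replicate 1 had list sums near those of its group, with 4680 RPM for vessel against 3208 to 3853 RPM and 2250.0 RPM for mesenchymal against 1562 to 3079 RPM. Male FA replicate 2, the highest of its group for miR-133a-3p and miR-126a-3p, held 9442 RPM of the mesenchymal list against 541 to 979 RPM, with 7 of 8 listed miRNAs above the rest of the group. Male FA replicate 4, the highest of its group for miR-1a-3p, held 38068 RPM of the epithelial list against 6120 to 12950 RPM, with 10 of 13 above the rest, and 7233 RPM of the vessel list against 1171 to 5523 RPM. Male O3 replicate 2, the highest of its group for miR-126a-3p, held 5709 RPM of the vessel list against 1418 to 2772 RPM, 3239 RPM of the mesenchymal list against 294 to 2858 RPM and 17478 RPM of the red cell list against 1038 to 7869 RPM. It also held 55779 RPM of the epithelial list against 4726 to 15210 RPM and 99791 RPM of the myeloid list against 180439 to 188504 RPM. The part of these cell types in the levels of the 3 miRNAs was not tested.

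**Figure D3:**
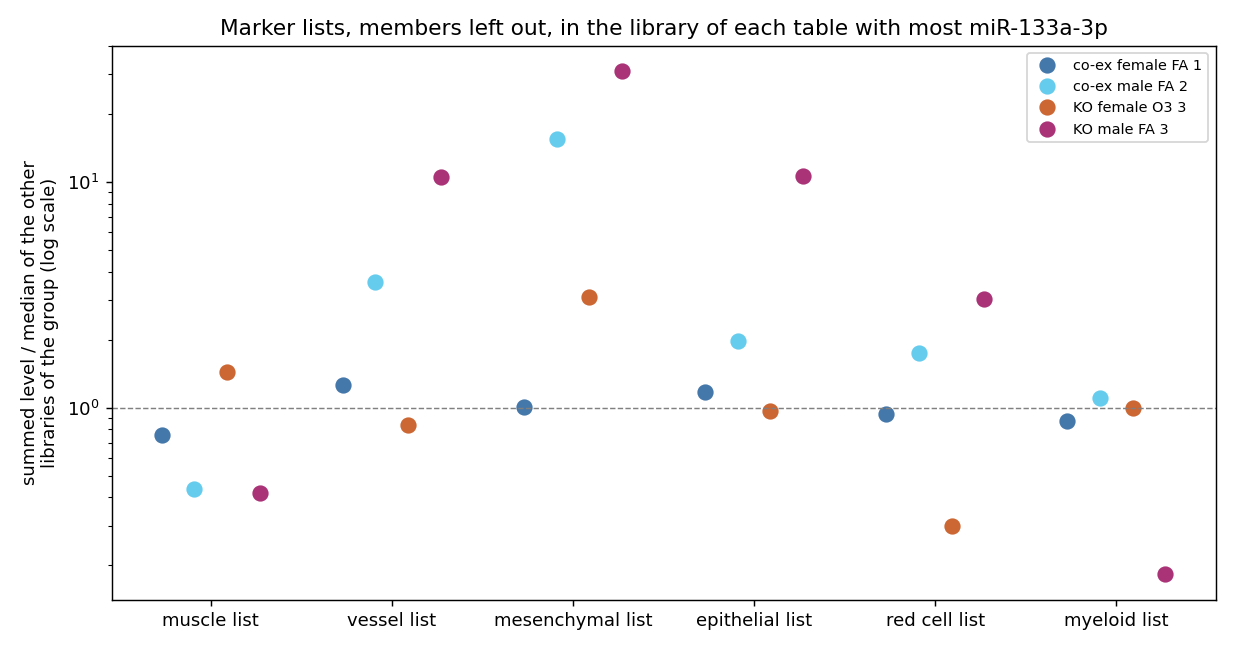
Summed RPM of 6 marker lists, with miR-1a-3p, miR-133a-3p and miR-126a-3p left out, in the library of each table with most miR-133a-3p, divided by the median of the other libraries of its group (log axis; each point is 1 library, dashed line at equal levels). KO male FA replicate 3 lies at 31.0 for the mesenchymal and 0.182 for the myeloid list, KO female O3 replicate 3 at 3.09 and 0.992, and co-ex female FA replicate 1 at 1.00 and 0.874.

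The comparison of O3 with FA, the question of the study, was then described for the 3 miRNAs by dividing group means of the deposited normalized values, which carry their own scale in each table. For miR-1a-3p in KO females the means were 38.6 ± 24.3 (SD, n = 3) after FA and 12741 ± 21825 (SD, n = 3) after O3, a ratio of 330-fold that became 3.64-fold without O3 replicate 3. In KO males the means were 1780 ± 3043 (SD, n = 3) after FA and 137 ± 159 (SD, n = 3) after O3, a ratio of 0.0770, and without FA replicate 3 O3 was 6.07-fold higher. In co-ex females O3 stood at 0.279 of FA with all libraries and at 1.41 without FA replicate 1, and in co-ex males at 0.243 and, without FA replicate 4, at 0.428. In KO mice the SD of the group with the highest library exceeded its mean.

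For miR-133a-3p the O3 mean in KO females was at least 658-fold the FA mean, and at least 18.1-fold without O3 replicate 3, both bounds set by an FA group with under 3 reads in each library. The ratio in KO males was 0.163 with all libraries and at least 7.62 without FA replicate 3. In co-ex females it was 0.0560 and, without FA replicate 1, 0.515, and in co-ex males 0.202 and, without FA replicate 2, 3.18. The direction turned in both tables of males.

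For miR-126a-3p the O3 mean in KO females, 132.5 ± 153 (SD, n = 3), was 25.0-fold the FA mean of 5.31 ± 2.64 (SD, n = 3), and 8.57-fold without O3 replicate 3. In KO males the ratio was 0.0363 with all libraries and 8.63 without FA replicate 3, so the direction turned. In co-ex females it was 0.955 with all libraries and 2.39 without FA replicate 1, and in co-ex males 2.05 with all and 0.360 without O3 replicate 2. Leaving out 1 library turned the direction in 7 of the 12 combinations of miRNA and table, and each of the 3 turned in KO males. In KO females the O3 mean was higher with and without replicate 3 for each of the 3. For miR-1a-3p, O3 replicate 1 at 11.8 RPM lay below each FA library. Without replicate 3 its higher O3 mean thus rested on replicate 2 alone, at 576 RPM.

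**Figure D4:**
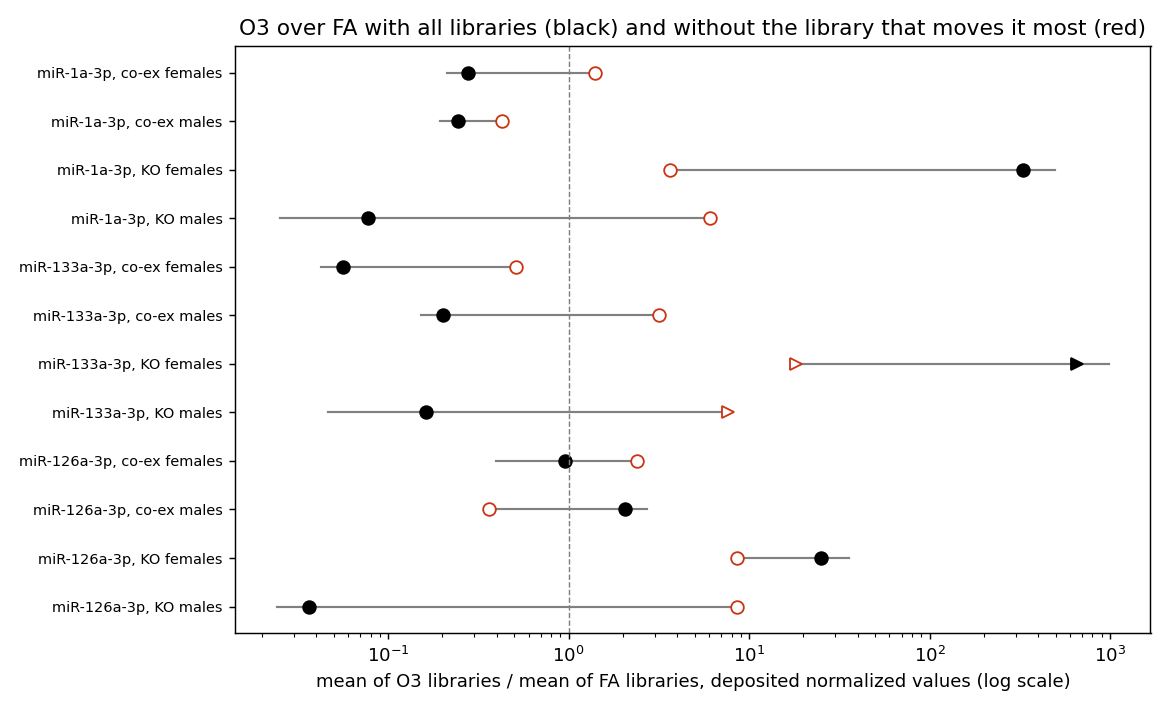
O3 mean over FA mean of the deposited normalized values (log axis) for each miRNA in each table, with all libraries (black) and without the library that moved it most (red), gray lines spanning the ratios with each library left out in turn, triangles marking lower bounds and a dashed line at 1. In KO males the ratio of miR-126a-3p goes from 0.0363 to 8.63 without FA replicate 3, and in KO females that of miR-1a-3p from 330 to 3.64 without O3 replicate 3.

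On the log2 scale, which weighs a single high library less, limma gave for miR-126a-3p in KO females a difference (O3 minus FA) of 3.67 (SE 1.22) and in KO males of -0.13 (SE 2.40). For miR-1a-3p the differences were 3.61 (SE 2.58) in KO females, -0.70 (SE 2.13) in KO males, -0.38 (SE 0.94) in co-ex females and -1.50 (SE 0.73) in co-ex males. These are values on log2(normalized value + 1), with 3 and 3 libraries in KO and 4 and 4 in co-ex. A miRNA was fitted in a table if enough of its libraries, the size of the smaller group, had a normalized value of 5 or more. This held for 10 of the 12 combinations, all but miR-133a-3p in KO females and miR-126a-3p in co-ex males. By limma with Benjamini-Hochberg adjustment at 0.1, 0.369% of the miRNAs tested were called in co-ex females, 0 of 312 in co-ex males (11 at an unadjusted p under 0.05, and 0 by edgeR and by DESeq2), 13.2% in KO females and 0.909% in KO males.

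The marker lists, without the 3 miRNAs, were tested for O3 against FA in the same fit over all miRNAs. No vessel or mesenchymal miRNA was called by limma in any table. In KO females the median log2 difference was 1.27 over the 7 vessel miRNAs tested and 2.15 over the 5 mesenchymal ones, against 0.06 over all 319 tested. miR-139-5p had 3.54 (SE 1.37), miR-218-5p 3.76 (SE 1.44) and miR-143-3p 2.11 (SE 0.75), and their adjusted p-values by limma were 0.150, 0.147 and 0.132. The O3 libraries of each lay above its FA libraries, as for 19.1% of all miRNAs tested in KO females. miR-139-5p, miR-218-5p, miR-126a-5p and the mesenchymal miR-214-3p had reached the filter through the O3 libraries alone. Nothing is thus read from their values, or from the vessel and mesenchymal medians, which include them. Epithelial miRNAs did pass the test there, with 10 of 12 higher after O3 against 10% of all miRNAs called higher, among them miR-200b-3p (3.26, SE 0.48, adjusted p 0.00523 by limma) and miR-34c-5p (4.62, SE 0.80, adjusted p 0.00816 by limma). Among the 10, miR-141-3p, miR-34c-3p and miR-449a-5p had too few FA libraries at a value of 5 or more. They had reached the filter through the O3 libraries, so nothing is read from their calls. Without O3 replicate 3, 8 of 12 were called higher, against 6.12% of all miRNAs in that fit. miR-34c-3p was among these 8, and miR-141-3p and miR-449a-5p were not. KO females were also the table in which miR-126a-3p had all O3 libraries above all FA libraries, as did 19.1% of all miRNAs tested there. The part of epithelial cells in the level of miR-126a-3p was not tested.

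In KO males, 1 of 13 epithelial miRNAs was called higher after O3, miR-34b-3p, and no vessel, mesenchymal or myeloid one. Without FA replicate 3, a comparison chosen after the data were seen, limma called 86 miRNAs in place of 4, with 3 of 7 vessel, 3 of 8 mesenchymal and 12 of 13 epithelial miRNAs higher and 2 of 9 myeloid ones lower. Over all 479 miRNAs of that fit, 13.8% were called higher and 4.18% lower. The vessel miRNAs were miR-10a-5p (1.31, SE 0.26, adjusted p 0.00335 by limma), miR-221-3p (0.78, SE 0.28, adjusted p 0.0864 by limma) and miR-130a-3p. The mesenchymal ones were miR-143-3p, miR-145a-5p and miR-199b-3p, and the myeloid ones miR-21a-5p and miR-146b-5p. In the FA libraries left, miR-130a-3p had 4 and 0 reads, miR-145a-5p 11 and 0 and the epithelial miR-34b-5p 0 and 0. These miRNAs had too few FA libraries at a value of 5 or more. They reached the filter through the O3 libraries, so nothing is read from their calls.

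The likeness of other miRNAs to the 3 was described over the 28 libraries by Pearson's r of log2(RPM + 1), centered within each table, among 296 miRNAs listed in all tables with at least 10 reads in at least 7 libraries. For miR-1a-3p the closest was miR-133a-3p (r 0.72, Spearman's rho 0.64), followed by miR-151-5p (0.61), miR-99a-5p (0.60), miR-148a-3p (0.60) and miR-10a-5p (0.60). Without KO female O3 replicate 3 and KO male FA replicate 3 its r was 0.52 with miR-133a-3p and 0.53 with miR-10a-5p, so the order rested on those libraries. Within tables it was 0.71 in co-ex females, -0.08 in co-ex males, 0.90 in KO females and 0.95 in KO males.

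miR-133a-3p was followed by miR-1a-3p, miR-99a-5p (0.70), miR-126a-3p (0.65), miR-30a-3p (0.64) and miR-5121 (0.60). For miR-126a-3p the closest were miR-30a-3p (r 0.76, rho 0.73), miR-141-3p of epithelium (0.74), miR-26a-5p (0.74), miR-30a-5p (0.73) and let-7c-5p (0.71), while miR-133a-3p came 12 in the order and miR-1a-3p 35 with r 0.50. These correlations share libraries and depths and are given with no p.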

How the data were processed

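Small RNA of AM was sequenced in 28 libraries. Per the labels and the methods, the authors filtered reads with the FASTX-Toolkit, trimmed the adapters and counted miRNAs with Chimira. The Chimira version and the genome build are not given in the sources used here. The values deposited by the authors in 4 tables, 1 for each genotype and sex, are a signal, the read count of each miRNA divided by a size factor set within the table. The deposited tables also hold the authors' own log2 fold change, p-value and q-value, a rank score (edgeR and TCC 1.14.0 per the labels) and row means, none of which were used. Each value was a whole multiple of 1 step in all 28 libraries (100% within 0.1), so reads were recovered. In 5 libraries under 100 low values bear on this step.

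RPM and exact 95% intervals were computed from those reads in scipy 1.17.1 (Python 3.11.15, with matplotlib 3.10.9, numpy 2.4.6 and pandas 2.3.3). The test of O3 against FA, within a table, was limma 3.58.1 (R 4.3.3) on log2(value + 1) with a trend in the prior. A miRNA was kept if the number of libraries at 5 or more reached the size of the smaller group. P-values were adjusted by Benjamini-Hochberg over all miRNAs tested, with a threshold of 0.1. The fit was tested on simulated data. Members and marker lists were chosen with earlier results of these data known. The named miRNAs are the 3 members, the other arms of their hairpins, the lists, and the 5 most alike to each member; miR-30d-5p, chosen after its values were seen, is named for its rank. Alternatives were RPM, edgeR 4.0.16 and DESeq2 1.42.0 on the recovered reads, no filter, a pseudocount of 0.1, the replicate number as a block, other scalings or the mean for the highest library, and each replicate left out. Ratios of means, and lists without a library that stood apart, were added after seeing the data. In each of 36 pairs of replicates the counts differed by at least 21.8 times the counting variance, so no pair was counted as 1 sample. Gene positions come from GENCODE and sequences from RefSeq.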

Additional observations from a re-analysis of the deposited data

Results flagged for a closer look

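In groups of 4, a library was marked when its gap to the nearest library took up more of the range of its group than Dixon's 95% critical value for 4 samples, which chance alone gives in about 1 of 20 groups. Of the 12 groups checked (4 co-ex groups for each of the 3 miRNAs), 4 were marked. The miRNAs were selected for single high libraries, so this count is a description, and nothing is read from it against the chance rate. Co-ex female FA replicate 1 was far from its group for miR-1a-3p, with 5210.0 RPM (gap over range 0.920), and for miR-133a-3p, with 2874.5 RPM (0.968). Co-ex male FA replicate 2 was far from its group for miR-133a-3p, with 283 RPM (0.957), and for miR-126a-3p, with 48.3 RPM (0.958). The KO groups hold 3 libraries each, so the check was not made for KO female O3 replicate 3 and KO male FA replicate 3.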

How the results depend on the processing

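The counts of called miRNAs (limma: 1 in co-ex females, 0 in co-ex males, 42 in KO females, 4 in KO males) moved by over 1.5 times in KO males alone when a setting other than the libraries changed, to 2 with edgeR, 15 with DESeq2 and 1 with the replicate block. No clear pairing of the libraries by replicate number was seen, though these values cannot exclude one. Deviations of libraries with the same number correlated at -0.276 to 0.233 in co-ex females, -0.103 to 0.139 in co-ex males, -0.015 to 0.042 in KO females and 0.040 to 0.092 in KO males. With the block the counts were 1, 0, 37 and 1. With 1 library left out the counts ran from 0 to 1 in co-ex females (0 without O3 replicate 2 or 4), 25 to 52 in KO females (25 without O3 replicate 3) and 0 to 86 in KO males (86 without FA replicate 3, 2 without FA replicate 1, 1 without FA replicate 2 or O3 replicate 1 or 2, 0 without O3 replicate 3).

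The ratio of the highest library to its group ran from 134 to 6560 for miR-1a-3p and from 54.8 to 1170 for miR-133a-3p in KO females, and from 4.09 to 17.7 for miR-126a-3p there, each highest without O3 replicate 2, with 1 library then left to compare. The ratio of the O3 to the FA mean ran from 0.212 to 1.41 in co-ex females, 3.64 to 494 in KO females and 0.0253 to 6.07 in KO males for miR-1a-3p. In co-ex males this ratio ran from 0.193 to 0.428, so its direction did not turn. For miR-133a-3p it ran from 0.0424 to 0.515 in co-ex females, 0.151 to 3.18 in co-ex males, 18.1 to 986 in KO females and 0.0462 to 7.62 in KO males. For miR-126a-3p it ran from 0.394 (without O3 replicate 4) to 2.39 in co-ex females, 0.360 to 2.73 in co-ex males, 8.57 to 35.8 in KO females and 0.0243 to 8.63 in KO males. The other scalings moved no ratio by more than the spread between replicates. The cause of these shifts was not tested. In the shallowest library, with 41542 reads, 0 reads allow up to 72.2 RPM.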
